A study of Mus musculus with 2 samples.

Results

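The C-type lectin receptor genes of mouse tumour immune cells were taken as every gene row whose symbol begins with Clec and a digit, begins with Cd209, or is Mgl2. This gave 38 genes of 31055 gene features. Of these, 17 had at least 100 UMIs in the gated cells (178 or more) and are described gene by gene, 15 had 1 to 99 UMIs and 6 had none. The cells came from a B78ChOVA melanoma, a mouse tumour line grown under the skin of the flank in Matrigel and taken 16 days after injection. Live sections of about 160 µm were tagged by ZipSeq, which uses light to put DNA barcodes on cells of chosen regions before dissociation, and sorted immune cells were run on 10x Genomics droplets. All cells share the tumour line, the day of harvest and the run, and the labels state neither the strain, sex and age of the host nor the number of tumours. The study holds 1 gene expression library and 1 spatial barcode library of the same cells, so every comparison below is between sets of cells within 1 library, with no replicate and no test.

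C-type lectin receptors are membrane proteins with a calcium-dependent or related lectin fold, and many recognise sugars of microbes, glycoproteins of the host or material of dead cells. Activating members signal through the adaptors Fcer1g or Tyrobp, or through a tyrosine motif of their own, to the kinase Syk and the Card9, Bcl10 and Malt1 complex. Inhibitory members carry a tyrosine motif that recruits the phosphatases Ptpn6, Ptpn11 or Inpp5d. On dendritic cells and macrophages several members also take up antigen, and members of the Clec2 group are ligands of Klrb1 receptors of NK cells.

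Barcodes under 1000 UMIs or 500 genes, or over 10% mitochondrial UMIs, were left out. The 4236 cells that remained had a median of 23132 UMIs and 4320 genes, and 3621 of them fell into 7 classes gated on marker genes that include no lectin gene. The classes were 527 lymphoid-like cells (median 6156 UMIs), 35 mature DC-like cells (12999), 35 cDC1-like cells (25807), 97 cDC2-like cells (19939), 393 monocyte-like cells (10619), 177 intermediate cells with both Ly6c2 and C1q (17536) and 2357 macrophage-like cells (29489). Each class held its defining markers. Xcr1 stood at 480.2 CPM in cDC1-like cells and at most 16.7 CPM in the other classes, Ccr7 at 2626 CPM in mature DC-like cells, and Ly6c2 at 1482 CPM in monocyte-like cells. Levels are counts summed over a class and scaled to 1000000 UMIs (CPM), ratios are the first set over the second, and intervals are 95% intervals of counting error only. Free RNA, taken from 68497 barcodes with 10 to 100 UMIs, held 10619.9 CPM of the 3 C1q genes, near the 10077 CPM of the intermediate class. Lymphoid-like cells held 195 CPM of those genes, against 16416 CPM in macrophage-like cells.

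Most of the family lies in a few gene blocks, which is where similar copies could share reads. On mm10, 9 members lie within chr6:122921848-123289870, from Clec4a1 to the neighbours Clec4d and Clec4e. Another 10 lie within chr6:128662385-129452000 (Clec2 genes, Clec12a, Clec9a), 8 within chr8:3707064-4137707 (Clec4g and the Cd209 genes), and Mgl2 and Clec10a within chr11:70130329-70170834. The closest pair of transcript ends was Cd209f with Cd209g, at 86.8% identity over the last 400 bases, followed by Clec4a4 with Clec4b1 at 81.9% and Clec2d with Clec2i at 80.7%. How reads that match both copies were counted is not given in the sources used here, so counts of these pairs carry that uncertainty.

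The promoters of 4 phagocyte genes of the first block and of the 2 main Cd209 genes of cDC2-like cells are printed, since these genes carry the contrasts described below. They are RefSeq sequences on GRCm38.p6, from 250 bases before to 50 bases after the annotated start, 5′ to 3′ on the gene's strand. In the first 4, capitals mark GAGGAA, the core bound by the myeloid factor PU.1, on either strand. They are chr6:122921598-122921897 (plus), chr6:123049712-123050011 (plus), chr6:123261857-123262156 (plus) and chr6:123289822-123290121 (minus).
Clec4a1: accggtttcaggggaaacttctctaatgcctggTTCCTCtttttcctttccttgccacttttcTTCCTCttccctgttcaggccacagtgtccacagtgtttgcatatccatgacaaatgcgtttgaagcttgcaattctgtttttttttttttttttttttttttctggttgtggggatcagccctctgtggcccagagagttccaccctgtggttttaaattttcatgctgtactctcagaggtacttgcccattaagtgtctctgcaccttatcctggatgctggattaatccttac
Clec4b1: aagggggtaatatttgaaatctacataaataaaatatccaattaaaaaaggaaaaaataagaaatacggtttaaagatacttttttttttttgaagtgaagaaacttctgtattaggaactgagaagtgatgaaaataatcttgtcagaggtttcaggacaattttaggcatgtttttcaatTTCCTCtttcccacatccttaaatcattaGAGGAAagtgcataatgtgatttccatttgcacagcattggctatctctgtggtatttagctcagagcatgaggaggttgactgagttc
Clec4d: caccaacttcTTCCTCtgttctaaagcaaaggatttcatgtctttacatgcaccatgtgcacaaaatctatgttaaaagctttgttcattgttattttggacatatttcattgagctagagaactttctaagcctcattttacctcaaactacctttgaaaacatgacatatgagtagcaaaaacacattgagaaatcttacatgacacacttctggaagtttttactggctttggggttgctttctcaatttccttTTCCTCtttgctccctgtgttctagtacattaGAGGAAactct
Clec4e: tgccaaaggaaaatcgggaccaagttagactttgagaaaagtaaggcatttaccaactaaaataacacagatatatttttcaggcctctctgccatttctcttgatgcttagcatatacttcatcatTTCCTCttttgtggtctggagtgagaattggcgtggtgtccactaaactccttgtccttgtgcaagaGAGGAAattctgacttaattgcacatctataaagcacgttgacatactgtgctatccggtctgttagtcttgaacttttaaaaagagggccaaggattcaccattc

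In the Cd209a (chr8:3748935-3749234, minus) and Cd209d (chr8:3878450-3878749, minus) promoters, capitals mark the composite element of ETS and IRF factors, GGAA followed after any 2 bases by GAAA, on either strand.
Cd209a: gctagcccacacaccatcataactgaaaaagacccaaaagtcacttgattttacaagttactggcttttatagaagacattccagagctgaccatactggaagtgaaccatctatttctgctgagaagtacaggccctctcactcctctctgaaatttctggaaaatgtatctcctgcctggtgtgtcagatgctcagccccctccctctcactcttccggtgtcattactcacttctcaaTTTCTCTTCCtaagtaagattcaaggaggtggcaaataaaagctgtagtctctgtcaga
Cd209d: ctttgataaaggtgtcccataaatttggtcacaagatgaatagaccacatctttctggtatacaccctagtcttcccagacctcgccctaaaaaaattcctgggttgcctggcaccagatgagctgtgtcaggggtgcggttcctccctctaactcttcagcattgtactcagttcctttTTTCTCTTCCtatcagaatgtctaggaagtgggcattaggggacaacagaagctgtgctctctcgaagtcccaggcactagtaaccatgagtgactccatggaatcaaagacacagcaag
GAGGAA was found in 10 of the 15 described genes that matched a promoter, where a gene counts with a match in any of its promoters. Counted by promoter, 16 of the 34 lectin promoters held it, where 28.3% of all 32851 promoters do. The ETS and IRF element was found in 4 of the 15 genes and 6 of the 34 lectin promoters, against 2.72% of all promoters. Of the promoters printed, Clec4a1 also holds the ETS and IRF element and Cd209d also holds GAGGAA, and these matches are not marked. The letters GGAA belong to both motifs, so matches of the motifs can overlap. The AP-1 element TGANTCA was found in 2 of the 15 genes and 8 of the 34 lectin promoters (7.81% of all promoters). TATAAA was found in 5 of the 15 and 10 of the 34 (13.6%). A match describes these letters only and shows neither binding nor a cause.

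The class of highest level differed between the described lectins. Clec4a1, Clec4a3, Clec4b1, Clec4a2 and Clec12a were highest in macrophage-like cells, Clec4d and Clec4e in monocyte-like cells, and Clec4n and Clec5a in the intermediate. Cd209a, Cd209d, Mgl2 and Clec10a were highest in cDC2-like cells, Clec9a in cDC1-like cells, and Clec2d, Clec2i and Clec16a in mature DC-like cells. For Clec12a, Clec5a, Clec2i and Clec16a the interval of the highest class overlapped that of the next class. Clec16a stood at 5.21 CPM on 3 UMIs in mature DC-like cells and at 5.14 CPM in cDC1-like cells. None of the 17 was highest in lymphoid-like cells. Together the 38 genes held 231 CPM in lymphoid-like, 338 CPM in mature DC-like, 506 CPM in cDC1-like and 2465 CPM in cDC2-like cells. They held 2078 CPM in monocyte-like, 2447 CPM in intermediate and 2545 CPM in macrophage-like cells.

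**Figure D1:**
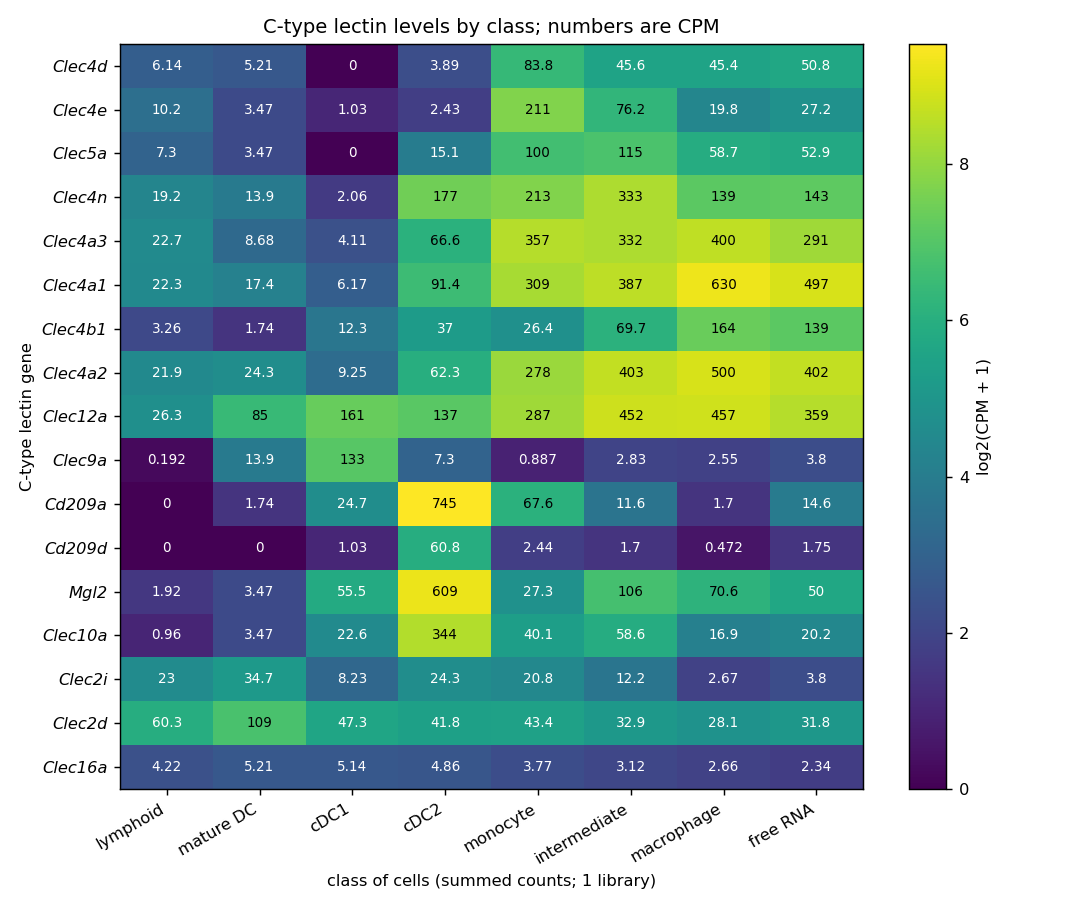
Levels of the 17 described C-type lectin genes (rows) in the 7 classes and in free RNA (columns), coloured by log2(CPM + 1), with the CPM printed in each box. Cd209a stands at 745 CPM in cDC2-like cells against 1.70 CPM in macrophage-like cells, and Clec4e at 211 CPM in monocyte-like cells against 19.8 CPM in macrophage-like cells.

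Of the Dcir and Dcar genes of the first block, Clec4a1, Clec4b1 and Clec4a2 were higher in the C1q-bearing phagocytes than in monocyte-like cells, and Clec4a3 differed little. Clec4a1, a Dcir gene without the inhibitory motif, stood at 309 CPM in monocyte-like, 387 CPM in intermediate and 630.2 CPM in macrophage-like cells. It stood at 22.3 CPM in lymphoid-like, 17.4 CPM in mature DC-like, 6.17 CPM in cDC1-like and 91.4 CPM in cDC2-like cells. The intervals of the 3 phagocyte classes and of cDC2-like cells did not overlap, while those of the mature DC-like class overlapped with both neighbours in the order. Clec4b1, the activating receptor Dcar that pairs with Fcer1g, stood at 26.4, 69.7 and 164 CPM in the monocyte-like, intermediate and macrophage-like cells. Its levels elsewhere were 3.26 CPM in lymphoid-like, 1.74 CPM in mature DC-like, 12.3 CPM in cDC1-like and 37.0 CPM in cDC2-like cells. Among the gated classes Clec4b1 was thus lower in those with little C1q than in the intermediate and macrophage-like classes. This did not hold for the 191 ungated cells, with 77.8 CPM (69.0 to 87.5) of Clec4b1 at 301 CPM of the C1q genes.

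Clec4a3, another Dcir gene, stood at 357 CPM in monocyte-like, 332 CPM in intermediate and 399.98 CPM in macrophage-like cells, and at 578 CPM in 21 cells gated as nonclassical monocyte-like. It stood at 66.6 CPM in cDC2-like and between 4.11 and 22.7 CPM in the other 3 classes. The inhibitory receptor Clec4a2 (Dcir1) stood at 278, 403 and 500.1 CPM in the monocyte-like, intermediate and macrophage-like cells, and at 62.3 CPM in cDC2-like cells. Its levels were 21.9 CPM in lymphoid-like, 24.3 CPM in mature DC-like and 9.25 CPM in cDC1-like cells. Clec12a, an inhibitory receptor that recognises uric acid crystals of dead cells, stood at 287, 452 and 457 CPM in the same 3 phagocyte classes, and its intermediate and macrophage intervals overlapped. In the dendritic classes it stood at 85.0 CPM in mature DC-like, 161 CPM in cDC1-like and 137 CPM in cDC2-like cells, and it stood at 26.3 CPM in lymphoid-like cells. Over the 7 classes Clec4a1 was likest to Clec4a2, with Pearson r = 0.99 of log2(CPM + 1), and these classes share 1 library and its free RNA.

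A second group of activating receptors was highest before C1q reached its full level. Clec4e (Mincle), which senses mycobacterial cord factor and the nuclear protein Sap130 of dead cells, stood at 211 CPM in monocyte-like, 76.2 CPM in intermediate and 19.8 CPM in macrophage-like cells. Clec4d, its neighbour and partner, stood at 83.8, 45.6 and 45.4 CPM in these classes. Both were at most 5.21 CPM in the 3 dendritic classes, and lymphoid-like cells held 10.2 CPM of Clec4e and 6.14 CPM of Clec4d. After thinning every cell to 1000 UMIs, Clec4e was found in 21.9% of monocyte-like, 7.34% of intermediate, 1.87% of macrophage-like and 0.190% of lymphoid-like cells. Before thinning these shares were 66.7%, 47.5%, 21.2% and 2.66%. Neutrophils also use both genes, and the neutrophil marker S100a8 stood at 9.09 CPM in monocyte-like, 0.567 CPM in intermediate and 1.15 CPM in macrophage-like cells. Of the same marker list, Csf3r stood at 82.9, 38.5 and 27.5 CPM in these classes, and S100a9, Retnlg and Cxcr2 at no more than 2.66 CPM. Cells over the limit on this list had been left out of the classes, which lowers such levels.

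Clec4n (Dectin-2), an Fcer1g-coupled receptor of fungal mannans, stood at 213 CPM in monocyte-like, 333 CPM in intermediate and 139 CPM in macrophage-like cells. It reached 177 CPM in cDC2-like cells against 2.06 CPM in cDC1-like cells, with 13.9 CPM in mature DC-like and 19.2 CPM in lymphoid-like cells. Clec5a, which signals through Tyrobp, stood at 100.2, 115 and 58.7 CPM in the monocyte-like, intermediate and macrophage-like cells. The first 2 of these Clec5a intervals overlapped. It had no UMI in cDC1-like cells, 3.47 CPM in mature DC-like, 7.30 CPM in lymphoid-like and 15.1 CPM in cDC2-like cells.

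Macrophage-like cells were set against monocyte-like cells, the ends of the Ly6c2 to C1q series. Of the 38 genes, 20 passed the minimum for this comparison. At least 2-fold higher were 4, and at least 2-fold lower were 4. The shares among all 11263 genes compared were 18.6% higher, 8.96% lower and 27.5% in either direction, so the number of higher lectins was close to that of genes at large. The median ratio was 0.913 over these lectins and 1.14 over all genes. Clec4b1 had the highest ratio, 6.21 with a lower bound of 5.18, followed by Clec9a at 2.88 (1.11 to 10.7) on 189 and 4 UMIs. Mgl2, a galactose-type receptor, had a ratio of 2.59 (2.17 to 3.12), and Clec4a1 one of 2.04 (1.93 to 2.15). With clusters in place of gates the log2 ratio of Mgl2 was -0.023 and that of Clec4a1 0.91, and with doubled gate limits that of Clec9a was 0.74, so none of these 3 calls held under every alternative.

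The lowest ratio was that of Cd209a, a mouse homologue of human DC-SIGN, at 0.0252 (0.0203 to 0.0311), with 1.70 CPM in macrophage-like cells against 67.6 CPM in monocyte-like cells. Its 126 UMIs in macrophage-like cells lay in 18 cells, 42.1% of them in 1 cell, and its 305 UMIs in monocyte-like cells lay in 29 of 393 cells. Clec4e had a ratio of 0.0939 (0.0865 to 0.102), Clec2i one of 0.128 (0.0998 to 0.166) and Clec10a one of 0.422 (0.360 to 0.495), which on cells thinned to 1000 UMIs was -0.88 on the log2 scale. Clec4d and Clec5a, at 0.542 and 0.586, stayed short of 2-fold.

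**Figure D2:**
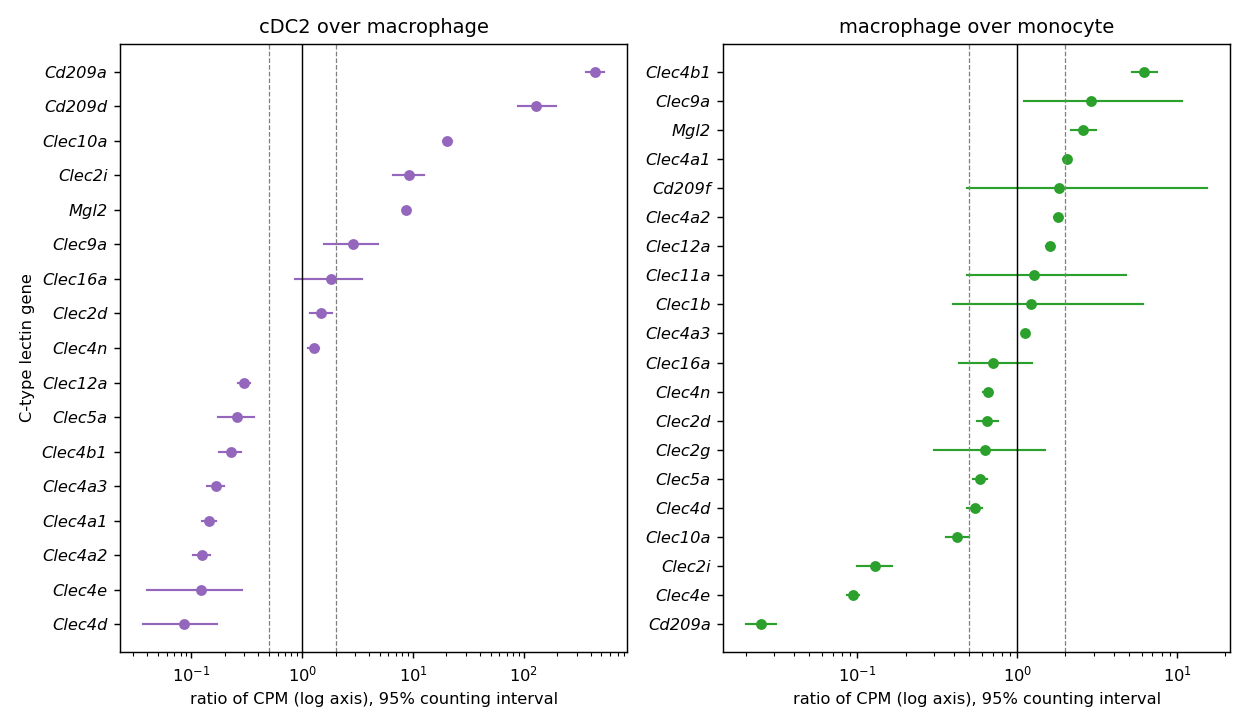
Ratios of CPM on a log axis with 95% counting intervals for every C-type lectin compared, in cDC2-like over macrophage-like cells (left, 17 genes) and in macrophage-like over monocyte-like cells (right, 20 genes). Dashed lines mark 2-fold. Cd209a has the highest ratio at left (438) and the lowest at right (0.0252).

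In intermediate cells against monocyte-like cells, 14 of the genes were compared. At least 2-fold higher were 2 (5.65% of 8827 genes in all) and at least 2-fold lower were 2 (3.89%), with 9.54% of all genes past 2-fold in either direction. Mgl2 stood at 106 CPM in intermediate and 27.3 CPM in monocyte-like cells, a ratio of 3.90 (3.17 to 4.82), and Clec4b1 had a ratio of 2.64 (2.11 to 3.32). Both calls depended on how cells were assigned, with a log2 ratio of 0.69 for Mgl2 under doubled gate limits and of 0.87 for Clec4b1 under clusters. Clec12a (1.58) and Clec4n (1.56) came next. Cd209a had a ratio of 0.172 (0.121 to 0.239), with 75.6% of its 41 intermediate UMIs from 1 cell, and Clec4e one of 0.361 (0.314 to 0.414), before Clec4d (0.544) and Clec2i (0.585).

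A finer order came from putting all cells of these 3 classes into 6 bins by their C1q UMIs per 10000. The bins held 357, 36, 172, 409, 983 and 970 cells from the lowest to the highest C1q. Clec4e stood at 220.3, 129, 90.9, 52.8, 17.9 and 8.75 CPM in them, lower in every further bin. Mgl2 stood at 19.2, 100.3, 294, 105, 48.2 and 66.0 CPM, with its peak in the third bin. Clec4n was highest in bins 2 and 3, at 312 and 305 CPM, and Clec4d in bin 3, at 123 CPM. These genes thus peaked at different points below the highest C1q bins.

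Clec4b1 stood at 25.6 CPM in the first bin, 33.4 CPM in the second and 167 CPM in the last. Clec4a1 stood at 305 CPM in the first bin, 302 CPM in the third and 675 CPM in the fifth. Cd209a stood at 74.8 CPM in the first bin, 2.23 CPM on 1 UMI in the second and 30.7 CPM in the third, where 93 UMIs were counted. Like Mgl2, Clec10a (59.2 CPM), Cd209d (8.26 CPM on 25 UMIs) and the MHC class II gene H2-Ab1 (6325 CPM) were highest in the third bin. Median depth moved with the bins, with 10540 UMIs per cell in the first, 35551 UMIs in the fifth and 27506 UMIs in the last, and the proliferation gene Mki67 stood at 4.43 CPM in the first and 171 CPM in the fifth. The part of these in the lectin levels was not tested.

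**Figure D3:**
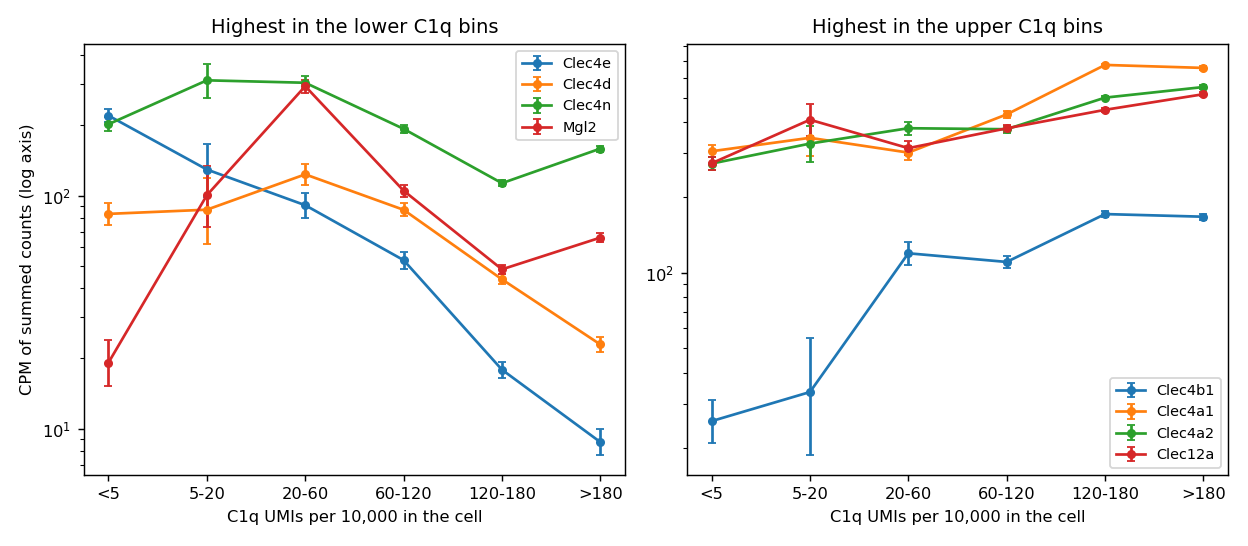
Levels of 8 C-type lectins (CPM of summed counts, log axis, bars are 95% counting intervals) along 6 bins of C1q UMIs per 10,000 in monocyte-like, intermediate and macrophage-like cells. Clec4e runs from 220.3 CPM in the lowest bin to 8.75 CPM in the highest, Mgl2 peaks at 294 CPM in the third, and Clec4b1 reaches 167 CPM in the highest.

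The galactose-type receptors Mgl2 and Clec10a and the DC-SIGN homologues Cd209a and Cd209d were highest in cDC2-like cells. Cd209a stood at 745 CPM there, against 1.70 CPM in macrophage-like cells, with 24.7 CPM in cDC1-like, 1.74 CPM in mature DC-like and no UMI in lymphoid-like cells. That 0 holds for lymphoid-like cells gated with a limit on dendritic cell genes, which was added after Cd209a had been seen there, and without the limit the level was 29.0 CPM. Cd209a was found in 73 of 97 cDC2-like cells, and in 38.1% of them after thinning to 1000 UMIs. In the 527 lymphoid-like cells, at their lower median depth of 6156 UMIs, the count of 0 allows a share of cells with a UMI of up to 0.569%, which limits detection and not expression. Cd209d stood at 60.8 CPM in cDC2-like cells, with 22.4% of its UMIs from 1 of 27 cells, and at most 2.44 CPM in any other class. Mgl2, which binds galactose and N-acetylgalactosamine, stood at 609 CPM there, and Clec10a (Mgl1), a receptor of Lewis X type sugars, at 344 CPM. Both were far lower in macrophage-like cells, with 70.6 CPM of Mgl2 and 16.9 CPM of Clec10a.

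In cDC2-like cells against macrophage-like cells, 17 lectins were compared. At least 2-fold higher were 6, where 7.55% of all 10359 genes were, and at least 2-fold lower were 8, where 16.6% were (24.2% in either direction). Only 3 of the 17 stayed within 2-fold, Clec4n, Clec2d and Clec16a. Cd209a had a ratio of 438 (365 to 530), and Cd209d one of 129 (87.9 to 193). Clec10a followed at 20.3 (18.5 to 22.3) and Clec2i at 9.10 (6.54 to 12.5), ahead of Mgl2 at 8.62 (8.10 to 9.17). The phagocyte genes formed the low end, with Clec4d at 0.0856 (0.0369 to 0.169), Clec4e at 0.123 (0.0398 to 0.287), Clec4a2 at 0.124 and Clec4a1 at 0.145. With halved gate limits Clec4e came within 2-fold, at a log2 ratio of -0.53, and so did Clec9a, at 0.49. Free RNA held 497 CPM of Clec4a1, 402 CPM of Clec4a2 and 14.6 CPM of Cd209a.

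Clec9a was the lectin highest in cDC1-like cells. This receptor binds actin filaments of dead cells and is coupled to Syk through a motif of its own. Clec9a stood at 133 CPM in cDC1-like cells and 7.30 CPM in cDC2-like cells, a ratio of 18.2 (10.6 to 33.4). Its UMIs lay in 34 of 35 cDC1-like cells, no single cell held more than 8.53% of them, and 1 of 527 lymphoid-like cells had one. After thinning to 1000 UMIs it was found in 8.57% of cDC1-like cells and in no lymphoid-like cell. Mature DC-like cells held 13.9 CPM, intermediate cells 2.83 CPM, macrophage-like cells 2.55 CPM and monocyte-like cells 0.887 CPM.

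In cDC1-like against cDC2-like cells 14 lectins were compared, of which 1 was at least 2-fold higher (3.84% of 6985 genes) and 11 were at least 2-fold lower (9.95%), with 13.8% of all genes in either direction. The median ratio was 0.120 over the 14 lectins and 0.969 over all genes. Clec12a at 1.18 (0.962 to 1.44) and Clec2d at 1.13 (0.773 to 1.64) had intervals that hold 1, and Clec2i, the next, stood at 0.338. Clec4n had the lowest ratio, 0.0116 (0.00140 to 0.0423) on 2 UMIs in cDC1-like cells, then Cd209d at 0.0169 (0.000425 to 0.0960) on 1 UMI, Cd209a at 0.0331 and Clec4a3 at 0.0617. With clusters in place of gates Clec4a3 came within 2-fold (log2 ratio -0.90), as did Clec4a1 (-0.42), Clec4a2 (-0.47) and Clec4b1 (-0.23). All 24 Cd209a UMIs of cDC1-like cells came from 1 cell, and 1 cell gave 50% of their 54 Mgl2 UMIs. Clec1b, the podoplanin receptor of platelets, had 8 UMIs in 7 cDC1-like cells. Its annotation overlaps that of Clec9a on the same strand. The platelet genes Ppbp, Itga2b and Gp9 had no UMI in this class. Pf4, of the same list, stood at 2.06 CPM in it, against 269 CPM in macrophage-like cells.

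Mature DC-like cells, marked by Ccr7 and Fscn1, held less of most lectins than cDC1-like plus cDC2-like cells did. Of 14 lectins compared, 1 was at least 2-fold higher (10.6% of 7445 genes) and 10 were at least 2-fold lower (26.8%), with 37.4% of all genes in either direction. Clec2d stood at 109 CPM in mature DC-like and 43.6 CPM in conventional cells, a ratio of 2.51 (1.83 to 3.41), and with halved gate limits its log2 ratio was 0.91, short of 2-fold. Clec2i had a ratio of 1.81 (1.03 to 3.06), Clec12a one of 0.587 (0.427 to 0.789) and Clec4a2 one of 0.537 (0.286 to 0.932). Cd209a fell to 1 UMI in mature DC-like cells, against 1556 UMIs in conventional cells, a ratio of 0.00338 (8.5e-05 to 0.0188). Mgl2 had 2 UMIs against 1305 (ratio 0.00806, 0.000975 to 0.0292), and Clec10a 2 UMIs against 729 (ratio 0.0144, 0.00174 to 0.0523). Clec4b1 came next, with 1 UMI and a ratio of 0.0597 (0.0015 to 0.342). With halved gate limits Clec4b1 came within 2-fold (log2 ratio -0.64), as did Clec4a3 (-0.70). Clec9a had a ratio of 0.292 (0.124 to 0.591), and 1 of 35 cells gave 37.5% of its 8 UMIs.

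Clec2d and Clec2i, ligands of Klrb1 receptors, were higher in lymphoid-like cells than in the phagocyte classes summed, and both were highest in mature DC-like cells. The Clec2i intervals of mature DC-like and cDC2-like cells overlapped, as did those of lymphoid-like and monocyte-like cells. Clec2d (Clr-b), bound by the inhibitory Klrb1b receptor, stood at 60.3 CPM in lymphoid-like cells, 47.3 CPM in cDC1-like, 41.8 CPM in cDC2-like, 43.4 CPM in monocyte-like, 32.9 CPM in intermediate and 28.1 CPM in macrophage-like cells. Clec2i (Clr-g), a ligand of Klrb1f, stood at 23.0 CPM in lymphoid-like, 34.7 CPM in mature DC-like, 8.23 CPM in cDC1-like, 24.3 CPM in cDC2-like, 20.8 CPM in monocyte-like, 12.2 CPM in intermediate and 2.67 CPM in macrophage-like cells. Against the 3 phagocyte classes summed, lymphoid-like cells had a ratio of 5.65 (4.55 to 6.98) for Clec2i and 2.07 (1.83 to 2.33) for Clec2d. With a mitochondrial limit of 5% the log2 ratio of Clec2d was 0.80, short of 2-fold. These were the only 2 of 22 compared lectins at least 2-fold higher, where 14.9% of 11713 genes were, and 15 were at least 2-fold lower, where 20.1% were (35.1% in either direction). Clec16a, an endosomal protein and not a surface receptor, had a ratio of 1.54 (0.947 to 2.39).

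Within lymphoid-like cells the Clec2 levels differed by cluster. Clec2d stood at 132 CPM in a cluster led by Tnfsf8 and Rora with Cd4 (92 cells) and 83.9 CPM in one led by Ly6c2 and Cd7 with Cd8a (147 cells). It stood at 78.6 CPM in the Foxp3 cluster (80 cells), 70.5 CPM in the Ncr1 cluster (67 cells) and 104 CPM in the Cd79a cluster (16 cells). A Cd8a cluster led by Xist, dsredexpress1 and Cd70 (111 cells) held 30.6 CPM. Clec2i stood at 31.8, 46.1, 13.5, 16.7, 81.2 and 15.5 CPM in the same order. The Cd8a clusters thus differed in both genes, and the one with Xist, dsredexpress1 and Cd70 had the deeper cells, with a median of 15587 UMIs against 5615. The part of depth, or of other differences between these clusters, in the Clec2 levels was not tested.

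Most UMIs of several myeloid lectins in the lymphoid-like class came from a few cells. The 6 clusters of at least 15 cells held 513 of the 527 cells but 47 of 116 Clec4a1 UMIs, 38 of 137 Clec12a UMIs, 14 of 100 Clec4n UMIs and 9 of 53 Clec4e UMIs, so the other 14 cells carried the rest. Over the whole class, Clec4b1 had the lowest ratio to the 3 phagocyte classes, 0.0215 (0.0125 to 0.0344), and Mgl2 had one of 0.0275 (0.0132 to 0.0507), Clec4a1 one of 0.0370 and Clec4a2 one of 0.0452. Clec4a1 stood at 22.3 CPM in lymphoid-like cells and 497 CPM in free RNA, and Clec12a at 26.3 and 359 CPM. In these 6 clusters Clec4a1 lay between 3.54 and 12.3 CPM. Without the limit on dendritic cell genes the Mgl2 level of the class was 65.8 CPM, and the log2 ratio of Mgl2 was -0.084 and that of Clec10a -0.23.

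The 15 genes with 1 to 99 UMIs added a few cDC2-type members. Clec4g had 15 UMIs in 14 of 97 cDC2-like cells and 1 UMI in all other gated cells. Cd209c had 14 UMIs in 11 cDC2-like cells and Cd209e 24 UMIs in 10, and no class but macrophage-like cells held more than 2 UMIs of either besides. Clec2g (96 UMIs), Clec11a (94 UMIs), Clec1b (76 UMIs), Cd209f (64 UMIs) and Clec2l (60 UMIs) were mostly counted in macrophage-like cells, where none of them was above 1.13 CPM. That class holds 74094375 UMIs, against 5208139 UMIs in the next largest, so most UMIs of many genes fall there. By CPM each was higher in another class, on few UMIs. Clec1b stood at 8.23 CPM and Clec2l at 3.08 CPM in cDC1-like cells, on 8 and 3 UMIs. The other 7 genes, Clec1a, Clec4a4, Cd209g, Clec3b, Clec4b2, Cd209b and Clec2e, had 33 UMIs or fewer. Clec4f, Clec2h, Clec12b, Clec18a, Clec3a and Clec14a had no UMI in gated cells.

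Macrophage-like cells were not uniform in these genes. Clusters were built without the lectins and are named here by number and leading genes. Clec4n stood at 420.3 CPM in cluster 17, led by Ear2 and F7 with Retnla (145 cells), at 376 CPM in cluster 14, led by Ly6i and Mcemp1 (134 cells), and at 24.3 CPM in the cycling cluster 9, led by Cenpf (201 cells). Mgl2 stood at 269 CPM in cluster 17, 173 CPM in cluster 14 and 40.9 CPM in cluster 9. Clec4a1 ran the other way, with 335 CPM in cluster 17, 348 CPM in cluster 14 and 903 CPM in cluster 9. Over the 12 clusters of at least 30 cells Clec4n thus spanned 17.3-fold, and Clec4a1 spanned 2.93-fold.

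Clec4d was highest in cluster 7, led by Ifnb1 and the heat shock gene Hspb1 with Nos2 (299 cells), at 132 CPM, where Clec4a3 was lowest at 161 CPM and Clec4a1 at 308 CPM. Clec4e was highest in cluster 14, at 86.4 CPM, and Clec5a too, at 143 CPM. Cluster 14 also kept 52.6 CPM of Ly6c2. Cluster 24 (39 cells) was shallow, with a median of 2027 UMIs, and its values rest on few counts.

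A small macrophage cluster held most of the Cd209f UMIs. Cluster 11, with 48 cells, held 461 CPM of Folr2, 95.7 CPM of Lyve1 and 1117 CPM of Retnla. Cd209f stood at 59.6 CPM there, from 56 UMIs in 5 cells, and at no more than 0.282 CPM in the other 11 clusters. Its near copy Cd209g had 9 UMIs in 3 of these cells. Clec10a, at 88.3 CPM (70.3 to 109), was also higher in it than in any other macrophage cluster. Clec2d stood at 67.0 CPM (51.5 to 85.8), with an interval that overlapped that of the next cluster, at 47.7 CPM. Free RNA held 8.77 CPM of Cd209f.

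**Figure D4:**
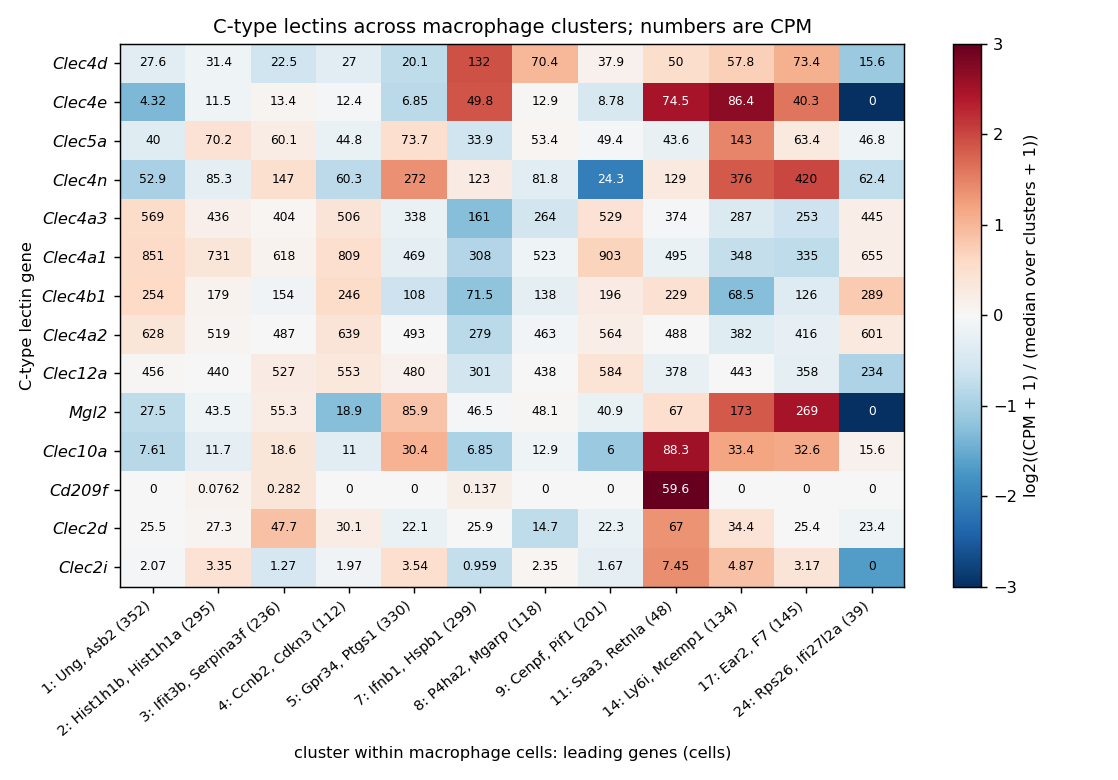
Levels of 14 C-type lectins in the 12 clusters of macrophage-like cells, coloured by log2 of (CPM + 1) over the median of the clusters plus 1, with CPM in each box and cells in parentheses. Clec4n and Mgl2 are highest in cluster 17 (420.3 and 269 CPM) and Cd209f stands out in cluster 11 (59.6 CPM).

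Clec4d with Clec4e, and Clec10a with Mgl2, were also counted in the same cells. Of monocyte-like cells with a Clec4d UMI, 82.3% had a Clec4e UMI, against 55.5% of those without, at median depths of 10688 and 10525 UMIs. In macrophage-like cells the shares were 34.2% and 12.5%, at median depths of 33402 and 27306 UMIs. Of macrophage-like cells with a Clec10a UMI, 54.3% had an Mgl2 UMI, against 22.0% of those without, at median depths of 31434 and 28741 UMIs. Among cDC2-like cells these shares were 71.4% and 48.1%. Depth was near equal in the monocyte-like pair and higher on the positive side in macrophage-like cells, and its part in the shares was not tested.

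The signalling genes behind these receptors were set beside them, from lists of 15 signalling genes, 17 other lectin-fold receptors, 10 measured partners and ligands, and 13 outputs of the Card9 pathway. In macrophage-like over monocyte-like cells, 1 of 15 signalling genes was at least 2-fold higher and 4 were at least 2-fold lower, beside 18.6% and 8.96% of all genes compared, with a median ratio of 0.567 against 1.14 over all genes. The adaptor Fcer1g stood at 5483 CPM in macrophage-like cells, against 3798 CPM in monocyte-like cells, and Tyrobp at 2021 CPM, against 3711 CPM. Malt1 had the lowest ratio, 0.182 (0.169 to 0.196), then the kinase Prkcd at 0.402, while Src (4.83, 1.87 to 17.8) and Vav1 (1.47) were highest. In cDC2-like over macrophage-like cells Malt1 was highest at 7.15 (6.53 to 7.82), with 282 and 39.4 CPM, then Card9 at 1.97 (1.44 to 2.64). Src, on 1 UMI in cDC2-like cells, had a ratio of 0.114 (0.00287 to 0.638) and Fcer1g one of 0.279. There, 1 of 15 was at least 2-fold higher and 3 at least 2-fold lower, beside 7.55% and 16.6% of all genes.

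Of the other lectin-fold receptors, 8 of 17 were compared in macrophage-like over monocyte-like cells, with 4 at least 2-fold higher and 3 at least 2-fold lower, beside 18.6% and 8.96% of all genes. The B cell and macrophage receptor Cd72 (13.0) and the mannose receptor Mrc1 (3.78) had the highest ratios, and thrombomodulin, Thbd (0.0940), was among the 3 lower. In cDC2-like over macrophage-like cells, 6 were compared, with 1 higher (Cd69, 2.12) and 4 lower, beside 7.55% and 16.6% of all genes. The lower ones were led by Cd93 (0.0465) and then Cd72, at 226 CPM in cDC2-like cells against 1132 CPM in macrophage-like cells. Cd207 had no UMI in cDC2-like cells and 1.92 CPM in macrophage-like cells.

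Among partners and ligands, 3 of 7 compared were at least 2-fold higher in macrophage-like over monocyte-like cells and none lower, beside 18.6% and 8.96% of all genes. Pdpn, the Clec1b ligand, had a ratio of 8.05 (5.08 to 13.6) and Klrb1b, the receptor of Clec2d, one of 7.64 (5.99 to 9.91), with 110.1 CPM in macrophage-like cells against 14.4 CPM in monocyte-like cells. Lgals9 (0.579) and Anxa1 (0.905) were lowest. In cDC2-like over macrophage-like cells 2 of 7 were at least 2-fold lower and none higher, beside 16.6% and 7.55% of all genes. These were Pdpn, with no UMI in cDC2-like cells, and Icam2, at 0.0536 (0.00136 to 0.300). Klrb1b (1.19) and Hmgb1 (0.904) were highest.

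Of the Card9 outputs, Cxcl1 (4.70) and Il10 (2.81) were highest and Il1b (0.103) and Ptgs2 (0.299) lowest in macrophage-like over monocyte-like cells, with 4 of 10 at least 2-fold higher and 2 lower, beside 18.6% and 8.96% of all genes. In cDC2-like over macrophage-like cells Il1b (6.15) and Ptgs2 (2.07) were highest and Cxcl1 (0.0311) and Ccl3 (0.0361) lowest, with 2 of 9 higher and 4 lower, beside 7.55% and 16.6% of all genes.

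Spatial barcodes allowed a comparison of macrophage-like cells between regions, although which region each barcode marks is not stated in the labels. Every kept cell had a spatial UMI, with a median of 1552.5. With the rule of at least 10 counts and 2 times the next barcode, 5 macrophage-like cells were ZC1, 10 were ZC2 and 1438 were ZC3, so these values rest on very few cells. In ZC1 over ZC3, 10 lectins were compared, 2 at least 2-fold higher (4.3% of 5141 genes) and 4 at least 2-fold lower (12.4%), with 16.7% of all genes in either direction. Clec4n (2.86, 2.10 to 3.79), Mgl2 (2.73, 1.69 to 4.19), Clec12a (1.05) and Clec2d (1.01) were highest and Clec4b1 (0.243), Clec4a3 (0.251), Clec4a1 (0.391) and Clec4d (0.488) lowest. In ZC2 over ZC3, 12 were compared, 3 higher (4.03% of 6632 genes) and 1 lower (10.6%), with 14.7% of all genes in either direction. Clec4d (5.58, 4.21 to 7.25), Mgl2 (2.98), Clec4n (2.01) and Clec4e (1.73) were highest and Clec4a1 (0.341), Clec4a3 (0.533), Clec10a (0.576, on 2 UMIs in ZC2, 0.0696 to 2.09) and Clec2d (0.608) lowest. With clusters in place of gates the log2 ratio of Clec4b1 in ZC1 was 0.37, that of Clec4n in ZC1 0.82 and that of Mgl2 in ZC2 0.29, so these 3 calls ended or turned.

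Dividing each barcode's share by its share in free RNA, with 30 spatial UMIs and 1.5 times the next, gave 252 ZC1, 244 ZC2 and 682 ZC3 macrophage-like cells. Both comparisons use the same ZC3 cells. In ZC1 over ZC3, 5 of 17 lectins were at least 2-fold higher (3.3% of 10824 genes) and 1 was at least 2-fold lower (1.65%), with 4.95% of all genes in either direction. Clec4e stood at 45.0 CPM in ZC1 and 12.3 CPM in ZC3 cells, a ratio of 3.67 (3.11 to 4.33). Mgl2 stood at 135 and 38.9 CPM, a ratio of 3.47 (3.16 to 3.81), and Clec10a had a ratio of 2.55 (2.14 to 3.04), close to that of Clec2i, 2.55 (1.53 to 4.19). Cd209f had 36 UMIs in 3 ZC1 cells, 50% of them from 1 cell, and none in ZC3 cells. With 3 counts over the whole ZC3 set as the floor its ratio was 44.3, which is not a lower bound. Clec9a had the lowest ratio, 0.398 (0.154 to 0.867) on 7 UMIs in ZC1, followed by Clec4a1 at 0.673, Clec4a3 at 0.729 and Clec4b1 at 0.782. By this rule Clec4a1, Clec4a3, Clec4b1 and Clec4n (1.98) thus stayed within 2-fold, and Clec4d turned to a ratio of 1.55 (1.37 to 1.75).

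In ZC2 over ZC3, 3 of 17 were at least 2-fold higher (1.84% of 10790 genes) and none at least 2-fold lower (1.37%), with 3.21% of all genes in either direction. Mgl2 stood at 99.5 CPM in ZC2 and 38.9 CPM in ZC3 cells, a ratio of 2.56 (2.32 to 2.83). Clec4n stood at 203 and 85.6 CPM, a ratio of 2.37 (2.21 to 2.54), and Clec2i had a ratio of 2.05 with an upper bound of 3.45, ahead of Clec4e at 1.84. Clec11a, on 5 UMIs in ZC2, stood at 0.508 (0.155 to 1.30), followed by Clec4a1 at 0.690, Clec4b1 at 0.699 and Clec4a3 at 0.787. Clec4d, at 5.58 on the 10 cells of the first rule, had a ratio of 1.34 (1.18 to 1.51) here, and Clec10a turned to one of 1.47 (1.19 to 1.80).

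**Figure D5:**
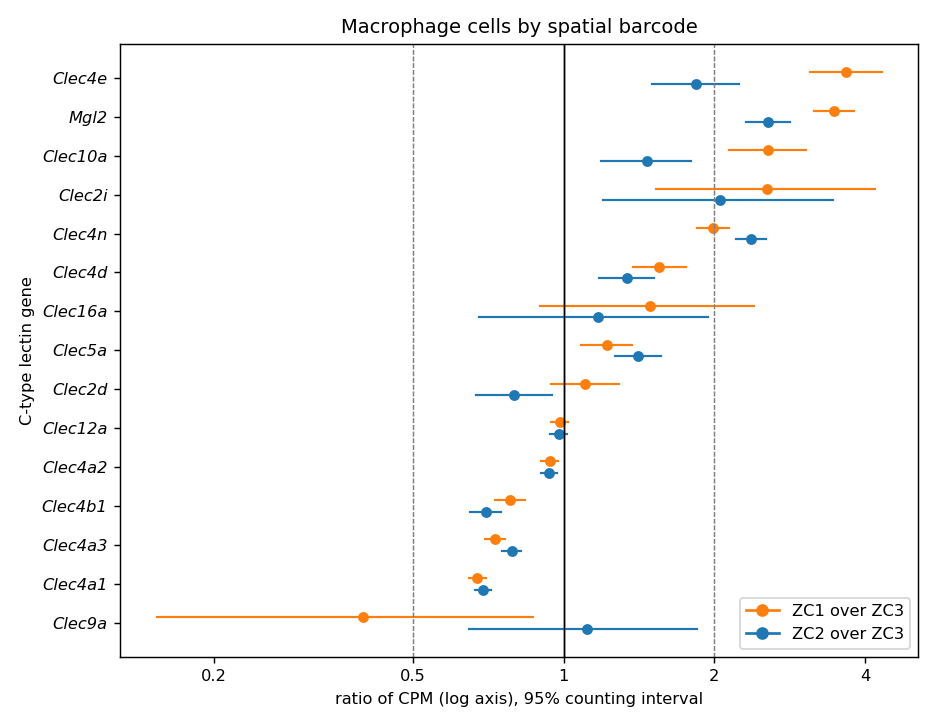
Ratios of CPM (log axis, 95% counting intervals) of 15 described C-type lectins in macrophage-like cells of ZC1 over ZC3 (orange) and ZC2 over ZC3 (blue), with barcodes assigned relative to free RNA. Dashed lines mark 2-fold. Mgl2 lies at 3.47 and 2.56 and Clec4a1 at 0.673 and 0.690.

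The make-up of the macrophage-like cells differed between barcodes. Cluster 17 held 15.5% of ZC1, 9.02% of ZC2 and 2.05% of ZC3 cells, cluster 11 held 34, 0 and 1 cells, and the cycling cluster 9 held 2.78%, 6.97% and 11.3%. Median depth was 23975 UMIs in ZC1, 25962 UMIs in ZC2 and 33156 UMIs in ZC3 cells. Within the 5 clusters that had at least 20 cells of both barcodes, the Mgl2 ratio of ZC1 over ZC3 ran from 0.947 to 7.39 and was above 1 in 4. The Clec4n ratio ran from 0.958 to 1.24 within these clusters, all below its pooled 1.98. Clec4e had values in 3 clusters, from 1.31 to 4.32. In ZC2 over ZC3 the Mgl2 ratio ran from 0.900 to 1.49 within clusters, below its pooled 2.56, and the Clec4n ratio from 0.923 to 2.38. The Clec4d ratio of ZC2 over ZC3 was below 1 in 4 of the 5 clusters, with a range of 0.323 to 2.29.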

How the data were processed

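The authors' deposited matrix holds unfiltered UMI counts of genes and of 3 spatial barcodes over 6794880 barcodes, made with Cell Ranger 4.0.0 on mm10 per the submitters' processing notes (the aligner's parameters: not given in the sources used here). It held 117528298 gene UMIs and 14355102 spatial UMIs.

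Cells were gated by the share of their UMIs in marker lists, in UMIs per 10000: Ly6c2 2, C1q genes 20, Xcr1 and Snx22 2, DC list 8, mature DC list 20, T genes 3, NK genes 10, B genes 20. Cells over the limit of another cell type (melanoma, plasmacytoid DC, nonclassical monocyte, neutrophil, mast cell, fibroblast) or with markers of several classes were left out: 342 mixed, 191 ungated, 61 other and 21 nonclassical monocyte cells. No doublet caller was run; mixed-marker cells were left out, and an alternative omits cells above 50000 UMIs. Limits were set on marker genes after the files were seen, while lectin levels of the resulting classes were also seen, and the lymphoid limit on Flt3, Zbtb46, H2-DMb2 and Ciita (1 per 10000 unless B genes were present) was added after lectin levels in lymphoid cells were seen. The lectins and gene lists were chosen with earlier results of these data known.

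Counts were summed per class. Comparisons took genes that reached 30 UMIs in the sets together and 3 expected UMIs in the smaller, with calls past 2-fold. Where a set had 0 UMIs, 3 counts over that set stood in as the floor. Intervals (exact Poisson, Clopper-Pearson, conditional binomial, 95%) cover counting error only, and no p-value was computed, since there is 1 sample. Lectins with at least 100 UMIs are described in every class; each comparison names its 4 highest and 4 lowest ratios, and each further list its 2 highest and 2 lowest, except 1 gene that is not reported here; other lectin values named were chosen after they were seen. Clusters came from Leiden at resolution 1.5 on 30 principal components, 15 neighbours and 1988 variable genes (12 lectins dropped), giving 28. The minimum cells for a macrophage cluster to be shown was lowered, and the values by barcode within clusters were added, after the data were seen. Promoters are RefSeq's, with 32 of 38 genes matched; positions and transcript ends are GENCODE's for the mm10 assembly. The motifs were chosen with results known.

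The 15 alternatives, 13 planned and 2 added after seeing the data, changed the gates, cell filters, UMI ceiling, averaging, thinning, free RNA, minimum, spatial rule, lymphoid limit and the cells with most lectin UMIs. The ratio code was tested on simulated data. Clustering used scanpy 1.11.5 with igraph 0.11.9, sequence work biopython 1.88, figures matplotlib 3.10.9 and statistics scipy 1.17.1, under pandas 2.3.3, numpy 2.4.6 and Python 3.11.15.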

Additional observations from a re-analysis of the deposited data

Results flagged for a closer look

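Cells outside the 7 classes held some lectins above every class compared. The 21 cells gated as nonclassical monocyte-like by Treml4, Ace, Cd300e, Eno3 and Spn (median 7088 UMIs) held 782 CPM (646 to 939) of Clec4e, against 211 CPM in monocyte-like cells. They held 190 CPM (127 to 275) of Clec4d, against 83.8 CPM in monocyte-like cells. Of Clec4a3 they held 578 CPM (462 to 715), against 357 CPM in monocyte-like and 400 CPM in macrophage-like cells. Macrophage cluster 1 held 569 CPM (555 to 583) of Clec4a3 and cluster 7 held 132 CPM (124 to 141) of Clec4d. Both intervals overlapped those of the 21 cells. The 21 cells held 27.2 CPM of Clec4a2 on 4 UMIs, against 278 CPM in monocyte-like cells, and no UMI of Clec5a, Clec4b1, Mgl2 or Clec10a. With 0 counts an interval of up to 25.1 CPM remains for each of these.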

How the results depend on the processing

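Of 106 counts of lectins past 2-fold recomputed under the alternatives, 99 stayed within 1.5 times the reported count. Thinning every cell to 1000 UMIs left fewer genes to compare and gave 5 (reported 8) in macrophage-like over monocyte-like, 2 (4) in intermediate over monocyte-like, 3 (12) in cDC1-like over cDC2-like, 3 (11) in mature DC-like over conventional, 1 (6) in ZC1 over ZC3 and 2 (4) in ZC2 over ZC3. Without cells above 50000 UMIs the ZC1 over ZC3 count was 3. Of 1437 recomputed log2 ratios of single lectins, 6 changed sign past the counting error. Cd209a in lymphoid-like over phagocyte classes, without a UMI in the lymphoid-like cells reported, gave 0.43 with doubled gate limits, 2.44 with clusters in place of gates and 2.33 without the limit on dendritic cell genes. Mgl2 in macrophage-like over monocyte-like gave -0.023 with clusters. In ZC1 over ZC3, Clec4b1 gave 0.37 with clusters and Clec4d 0.64 with the relative barcode rule. With the relative barcode rule Clec10a in ZC2 over ZC3 went to 0.55. The cause was not tested. Clusters formed no mature DC-like class, so that comparison has no cluster value. No paired analysis was possible because each kind of library has 1 sample. Depth limits the 35-cell classes most: a lectin with no UMI in cDC1-like cells may reach 3.79 CPM, and 6.40 CPM in mature DC-like cells. Between-tumour spread is unknown, and the spatial counts by the fixed rule rest on 5 and 10 cells.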

Other observations

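Cells that the gates left out also held lectins. The 191 ungated cells had 198 CPM (184 to 213) of Mgl2 and 131 CPM (119 to 143) of Clec4e, both between the levels of cDC2-like or monocyte-like cells and those of macrophage-like cells. The 342 mixed-marker cells, with a median of 31272 UMIs, had 403 CPM of Clec4a1, 32.5 CPM of Cd209a and 38.8 CPM of Clec2d. The 61 cells of other types (melanoma and the rest) had 25.3 CPM of Clec4a1 and 8.43 CPM of Cd209d on 31 UMIs.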
